A study of Bos taurus with 6 samples.

Results

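The spliceosome genes are the genes whose products cut introns out of pre-mRNA and join the exons. They were taken from the KEGG annotation that came with the expression table. A gene was a member when its annotation held the spliceosome pathway and not the pathway of antigen processing and presentation. This gave 118 of the 17663 genes on the table, after 4 genes with both pathways (HSPA2, HSPA8, HSPA1A and HSPA1L) were left out. Of the 118 members, 113 had a symbol and 112 fell into 11 lists by role.

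The cells were bovine fetal fibroblasts (bEFs) in primary culture from cattle fetuses at 50–60 days. The FT group was 3 fetuses with an exogenous fat-1 gene, whose product converts n-6 into n-3 polyunsaturated fatty acids, and the WT group was 3 Luxi cattle fetuses of the wild type. The promoter that drives fat-1 and the breed of the FT fetuses are not given for these animals in the sources used here. Each fetus gave 1 poly(A) RNA library (numbered 1 to 3 in each group, n = 3), and the comparison asked how the cells with the transgene differed from those without it. Total counts were 63366834, 48167642 and 54204446 for FT_1, FT_2 and FT_3, and 69777641, 51310741 and 54271927 for WT_1, WT_2 and WT_3.

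Splicing is carried out by small nuclear ribonucleoproteins (snRNPs), particles of a short RNA wrapped in proteins, that assemble anew on each intron. The U1 particle reads the start of the intron and the U2 particle its branch site, after which the U4/U6.U5 tri-snRNP joins, U1 and U4 leave, and the PRP19 complex and RNA helicases bring the machine into its active form. SR proteins and hnRNPs bind the pre-mRNA and influence which splice sites are used.

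The culture was checked through its markers first. All 12 genes of a fibroblast list were on the table and none was at 0 in any library. Vimentin (VIM) was the most abundant of them, with an FPKM (fragment count scaled by gene length and library total) of 1244, 3850 and 4171 in FT_1, FT_2 and FT_3 and of 7891, 8178 and 7312 in WT_1, WT_2 and WT_3. The summed FPKM of the list was 8815, 20120 and 19420 in the FT libraries and 21708, 21261 and 21504 in the WT libraries. VIM was not called (edgeR adjusted p = 0.090), PDGFRA was the only gene of the list called and was higher (1.06, adjusted p = 0.0053), and the median log2 fold change of the list was 0.13. Of all genes, 20.1% were called higher and 18.9% lower. Without FT_1, 5 of the 12 fibroblast genes were called higher and 2 lower (against 30.6% and 31.5% of all genes). The library FT_1 stood apart from the others. Summed over 8 epithelial genes, all on the table, FPKM was 441.8, 16.2 and 15.8 for the FT libraries in their order and 10.3, 7.92 and 14.2 for the WT libraries. The most abundant gene of this list was keratin KRT5, at 171.5, 2.57 and 1.63 in the FT libraries. KRT5, KRT8, KRT14, KRT18 and EPCAM were at 0 in all 3 WT libraries. CDH1 held most of the WT sum, at 10.0, 7.83 and 13.9. It was at 36.3, 7.11 and 8.41 in the FT libraries and was not called (0.85, edgeR adjusted p = 0.34). CLDN4 was the only epithelial gene called of 6 tested, and was higher (4.22, edgeR adjusted p = 0.0018). Without FT_1, 5 of 6 tested were called higher (against 30.6% of all genes). Of 6 mesothelial genes 4 were on the table, summing to 201.2, 45.0 and 46.3 in FT and 2.34, 3.51 and 3.38 in WT libraries. Nearly all of it was MSLN, which was called higher (5.26, edgeR adjusted p = 0.0035), while WT1 was at 0 in all FT libraries. The coefficient of biological variation, or the spread of libraries that counting noise leaves unaccounted for, was 56.9% and 57.6% over all genes when FT_1 was set against FT_2 and FT_3, which differed from each other by 8.25%, and it was 9.99–13.4% within the WT group. Over the spliceosome genes it was 12.4% and 13.3% for FT_1, 4.94% for the other FT pair, and 6.02–9.68% within the WT group. Counts of members are therefore also given without FT_1, and the part of the epithelial and mesothelial genes in the results was not tested.

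Spliceosome genes took a smaller share of the transcriptome in FT cells. Their counts made up 1.06%, 1.04% and 1.03% of the library in FT_1, FT_2 and FT_3 and 1.38%, 1.46% and 1.37% in WT_1, WT_2 and WT_3, so every FT library lay below every WT library. Their summed FPKM was 4241, 4095 and 4032 in FT cells and 6036, 6490 and 5985 in WT cells. The FPKM sum over all genes was also lower in FT cells, at 407533, 396565 and 390892 against 456349, 467653 and 453721. Members held 1.04%, 1.03% and 1.03% of that sum in FT libraries and 1.32%, 1.39% and 1.32% in WT libraries. After scaling by the trimmed mean of M values (TMM), a factor per library that centres most genes, the summed CPM of the members (counts brought to a common library size) was 13310 ± 435 (SD, n = 3) for WT and 11026 ± 28.2 for FT, which is a change of -17.2%. Over all genes tested the same sum changed by 11.1%. The fall was not even over the role lists. The 6 hnRNP genes went from 3239 in WT to 1944 in FT, and the 11 SR protein genes from 1798 to 1338. The U2, U5, U4/U6 and helicase lists changed by -0.01%, 2.7%, 4.9% and 7.3%. In bulk RNA, fewer cells that use the spliceosome genes and less of their RNA per cell cannot be told apart.

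Lower members outnumbered higher members. The quasi-likelihood test of edgeR on the counts, with Benjamini-Hochberg adjustment over the 13482 genes tested, called 50 of the 118 members lower (42.4%) and 12 higher (10.2%) at an adjusted p under 0.05. Of all genes tested, 18.9% were called lower and 20.1% higher. The threshold of the study's methods, p under 0.05 before adjustment with an absolute log2 fold change above 1, took 17 members as lower (14.4%, against 8.96% of all genes) and 1 as higher, PRPF38B (0.847%, against 10.2% of all genes). The scaled values of FT and WT did not overlap in 65 members lower in FT cells and 18 members higher, which were 55.1% and 15.3% of them, against 29.4% and 28.3% of all genes. All 118 members passed the filter on low counts, and each had at least 12 counts in every library.

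The median log2 fold change of the members was -0.26, against 0.03 for all genes tested. The scaling sets where 0 lies. With library totals alone the median of all genes was -0.12 and that of the members -0.41, and edgeR then called 66 members lower (55.9%) and 11 higher (9.32%). Among all genes the split moved from 2547 lower and 2714 higher with TMM to 3394 lower (25.2%) and 2049 higher (15.2%) with library totals. limma on log2(FPKM + 1), whose values are not rescaled, gave medians of -0.12 for all genes and -0.40 for the members, with 69 members lower (58.5%, against 29.2% of all genes) and 11 higher (9.32%, against 15.0%). Fold changes in the following come from edgeR with TMM. Without FT_1, edgeR called 64 members lower (54.2%) and 17 higher (14.4%), with a median of -0.27, while calls among all genes also grew, to 31.5% lower and 30.6% higher. The plot of change by role sets out where in the machinery the lower and higher members lay.

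**Figure D1:**
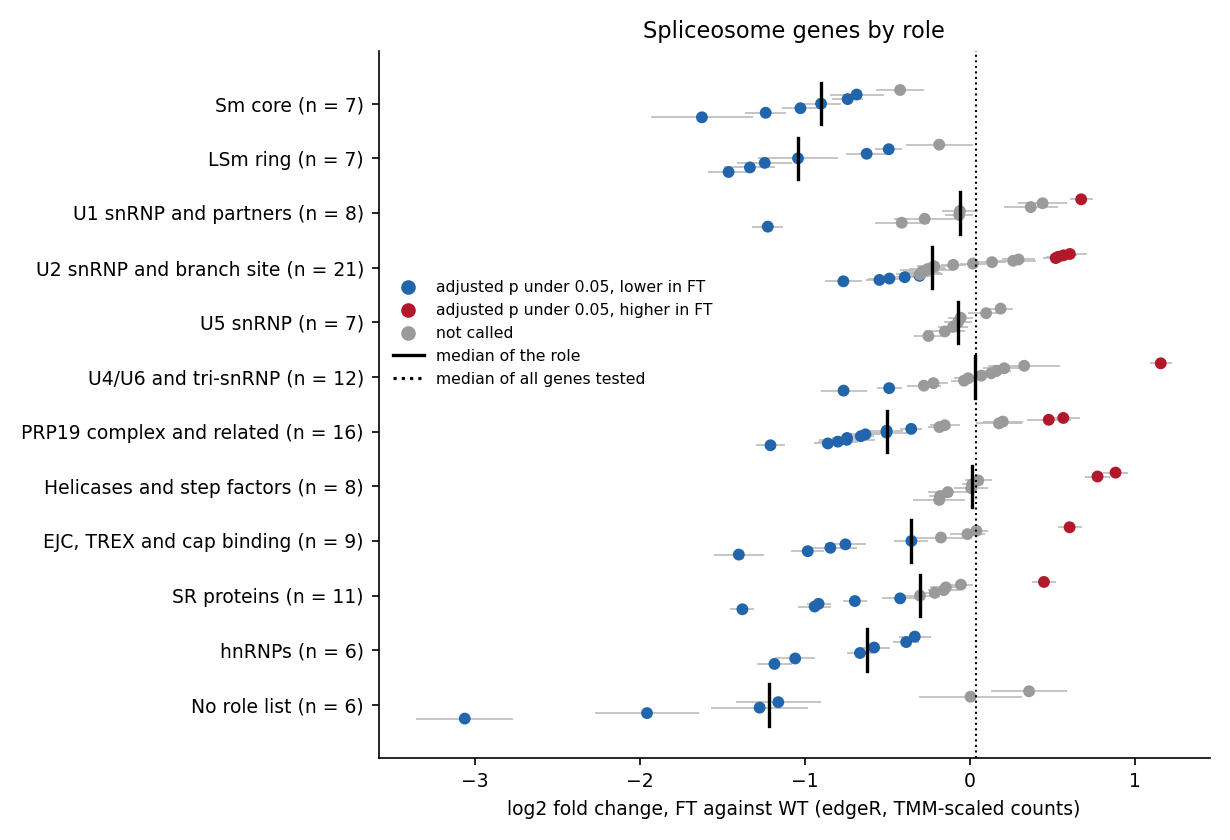
Log2 fold change of FT against WT (x axis, edgeR with TMM scaling) for the 118 spliceosome genes, 1 point per gene with the standard error of the fit as a bar, in a line by role. Black ticks are the medians of the roles and the dotted line the median of all genes tested (0.03). The Sm, LSm and hnRNP genes lie to the left, while the U5 genes lie around the dotted line.

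The members ranged widely in level. Their mean FPKM over the 6 libraries ran from 0.63 to 436.6 with a median of 29.7, and 105 of them had at least 10. The 8 members with a mean FPKM of at least 100 were SRSF3, the RNA helicase gene DDX5 and the 6 hnRNP genes HNRNPA1, HNRNPA3, HNRNPC, HNRNPK, HNRNPM and HNRNPU. The 118 members lay on 25 of the 29 chromosomes of the table, with at most 11 on any of them.

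The proteins that form a ring around each snRNA had the lowest medians of the role lists. Sm proteins encircle the U1, U2, U4 and U5 snRNAs, and 6 of their 7 genes fell (85.7%, against 18.9% of all genes), with a median log2 fold change of -0.90. SNRPD1, the most abundant of them (chromosome 24, 34606945 to 34614665 in the authors' table, as for the other positions here, with a build that is not named), had an FPKM of 49.0, 41.7 and 38.1 in FT cells and 85.0, 99.5 and 84.0 in WT cells. Its levels were 42.9 ± 5.58 and 89.5 ± 8.67 (SD, n = 3), and it fell by 0.90 on the log2 scale (SE 0.12, edgeR adjusted p = 0.0029). SNRPE fell by 1.24 (SE 0.12, adjusted p = 0.0013), from FPKM values of 28.6, 30.9 and 26.7 in WT cells to 12.6, 9.96 and 10.2 in FT cells. SNRPG had an FPKM of 20.7, 31.1 and 18.3 in WT cells and 9.06, 6.58 and 4.70 in FT cells, a fall by 1.62 with a wider error (SE 0.31, adjusted p = 0.0093). SNRPB was the Sm gene that was not called, with a log2 fold change of -0.42 (SE 0.15, adjusted p = 0.062), although its FPKM in each FT library (40.9–58.4) lay below that in each WT library (68.6–83.0). The number of Sm genes called lower was 7 without FT_1 (against 31.5% of all genes) and 6 without WT_1 (against 11.1%). It was 5 without any of the others (against 11.3–14.4%), where SNRPD3 lost its call (adjusted p of 0.061–0.077).

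LSm proteins form the related ring on U6 snRNA, and 6 of their 7 genes fell (85.7%, against 18.9% of all genes), with a median of -1.04. The number was 5 to 7 when single libraries were left out (against 11.1–31.5% of all genes). It was 4 when a trend on gene length was removed (against 19.4% of all genes). There LSM6 (-0.34, edgeR adjusted p = 0.062) and LSM8 lost their calls. LSM4 (chromosome 7, 4882773 to 4893672) had an FPKM of 14.9, 16.3 and 18.4 in FT cells and 47.9, 56.0 and 48.7 in WT cells. It fell by 1.46 (SE 0.12, edgeR adjusted p = 0.00097), which made its level in WT cells 2.76 times that in FT cells, and no FT library reached a WT library. LSM7 went from 61.9, 60.3 and 49.4 in WT cells to 23.4, 20.8 and 16.9 in FT cells (log2 fold change -1.33, SE 0.15, adjusted p = 0.0020). LSM3 went from 51.5, 67.8 and 47.7 to 19.0, 22.9 and 21.2 (-1.24, SE 0.17, adjusted p = 0.0030). LSM8, which sets the nuclear U6 ring apart from the cytoplasmic ring that decays mRNA, was the most abundant of the list and moved less. Its FPKM was 43.8, 39.0 and 41.3 in FT cells and 67.6, 62.1 and 65.1 in WT cells, so that every FT library was lower (-0.49, SE 0.08, adjusted p = 0.0058), and the call was lost when a trend on gene length was removed (-0.17, adjusted p = 0.19). LSM2 was not called (-0.19, SE 0.20, adjusted p = 0.50). Summed over the 14 Sm and LSm genes, the TMM-scaled CPM was 331.9 ± 25.1 in FT cells and 586.4 ± 54.2 in WT cells (SD, n = 3), a change of -43.4%. The plot of summed levels by role places these lists beside the others.

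**Figure D2:**
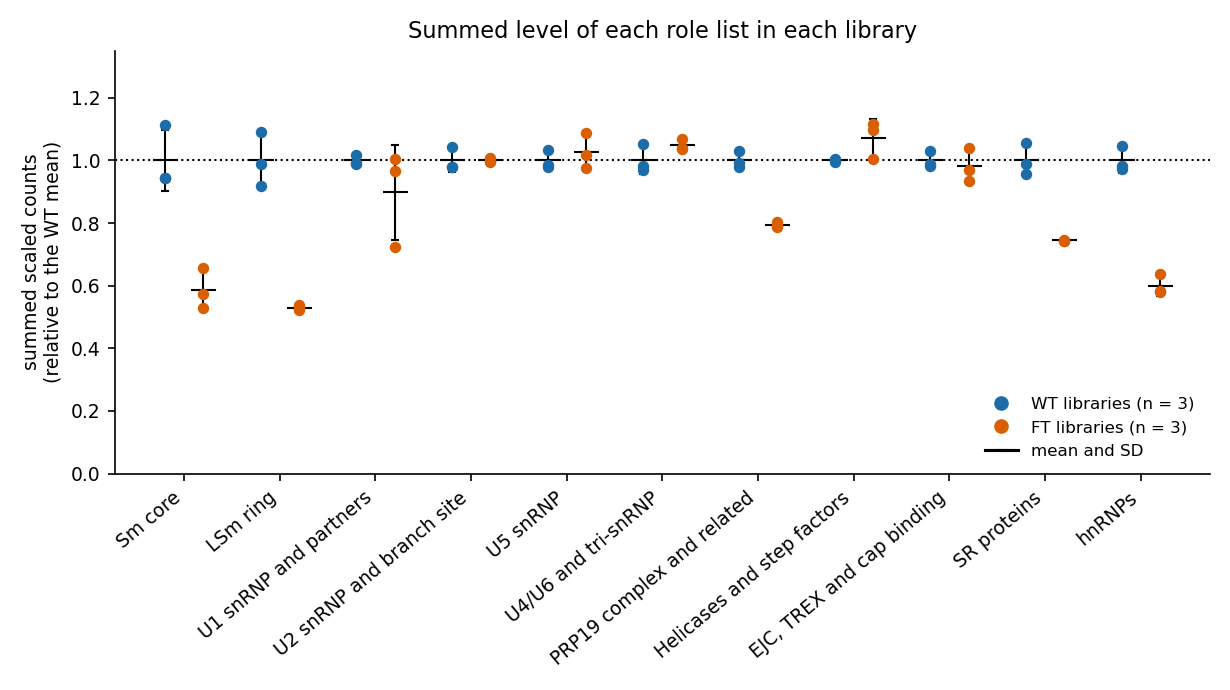
Summed TMM-scaled counts of each role list in each library (y axis, divided by the mean of the 3 WT libraries), with FT and WT libraries as points and the mean and SD (n = 3) in black. FT libraries lie below all WT libraries for the Sm core, LSm ring, PRP19, SR protein and hnRNP lists, and among WT libraries or close to them for U2 and U5. DDX5 holds most of the U1 list, and the low FT point there is FT_1.

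The U1 particle and its partners had a median of -0.06 over 8 genes. Of these 1 was lower and 1 higher (12.5% each, against 18.9% and 20.1% of all genes). Without FT_1 the counts were 2 and 2 (against 31.5% and 30.6%). SNRNP70, which encodes the U1 70K protein, has no KEGG entry on the table and so is not a member, and its log2 fold change was 0.06 (SE 0.14, adjusted p = 0.74). The U1 proteins SNRPA and SNRPC were not called (log2 fold changes of -0.06 and -0.41, adjusted p of 0.68 and 0.091). CCDC12, which encodes a coiled-coil protein of the activated spliceosome, fell from 22.7, 25.3 and 24.6 in WT cells to 9.18, 9.77 and 8.78 in FT cells (FPKM; -1.23, SE 0.09, edgeR adjusted p = 0.00082). DDX5, which encodes an abundant RNA helicase, had an FPKM of 160.1, 235.4 and 242.6 in FT_1, FT_2 and FT_3 and 287.3, 292.9 and 283.7 in WT cells. All FT values lay below the WT values, but FT_1 was far below the other FT libraries and the difference was not called (-0.27, SE 0.18, adjusted p = 0.28, and -0.098 without FT_1). DDX5 also overlaps CEP95 on the opposite strand over 5320 bases, and whether the counting used the strand is not given in the sources used here.

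The U2 particle and the factors for the branch site and the 3′ splice site had called genes near the all-gene shares with TMM scaling. Some other fits had more lower genes and some fewer. Of 21 genes, 5 fell (23.8%, against 18.9% of all genes) and 4 rose (19.0%, against 20.1%), and the median was -0.23. The number that fell was 9 without FT_1 (against 31.5% of all genes), 10 with library totals (25.2%) and 12 with limma (29.2%). It was 3 without FT_3, WT_1 or WT_2 (against 14.4%, 11.1% and 11.3%). With the length trend removed (against 19.4%) or a block on replicate number (against 12.9%) it was also 3. SF3B5, SF3B6 and SNRPB2 lost their calls with the length trend removed. SF3A binds U2 snRNP as a complex of 3 proteins. Its subunit SF3A3 had an FPKM of 39.1, 37.9 and 35.9 in FT cells and 58.3, 66.2 and 60.0 in WT cells (-0.55, SE 0.08, edgeR adjusted p = 0.0039). SF3A1 went the other way, with 42.0, 42.3 and 44.9 in FT cells and 33.1, 34.6 and 31.9 in WT cells (0.54, SE 0.08, adjusted p = 0.0037). SF3A2 likewise rose, with 18.5, 17.8 and 16.0 in FT cells and 13.5, 13.2 and 12.7 in WT cells (0.57, SE 0.08, adjusted p = 0.0035), though 200 of its bases overlap AMH on the same strand. SF3A3 and SF3A1 overlap genes on the opposite strand over 2031 and 452 bases, so their values are uncertain too. The log2 ratio of SF3A3 to SF3A1 counts, which does not depend on the scaling, was -0.55, -0.60 and -0.76 in FT cells and 0.37, 0.50 and 0.47 in WT cells. The pair was chosen after its values were seen, so the ratio is given without a test.

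SF3B1, the largest subunit of the SF3B complex that holds the branch site adenosine, was not called with all libraries. Its TMM-scaled CPM was 631.0–706.9 in FT cells and 608.2–612.7 in WT cells, without overlap. Its FPKM was 93.1, 102.2 and 95.9 in FT cells and 98.6, 99.0 and 98.9 in WT cells, and its log2 fold change was 0.13 (95% CI -0.07 to 0.34, edgeR adjusted p = 0.26). Without FT_1 it was called higher (0.17, adjusted p = 0.027), and with library totals or FPKM values its sign was negative (-0.02 and -0.03). SF3B4, another subunit, rose by 0.61 (SE 0.11, adjusted p = 0.0071), and so did the helicase gene DDX46 by 0.52 (SE 0.08, adjusted p = 0.0044).

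U2AF1 and U2AF2 encode the small and large subunits of the factor that reads the 3′ splice site and the polypyrimidine tract before it. U2AF1 had an FPKM of 53.7, 44.4 and 41.2 in FT cells and 82.7, 95.03 and 86.7 in WT cells, and fell by 0.77 (SE 0.11, edgeR adjusted p = 0.0041). U2AF2 had 60.1, 63.5 and 63.4 in FT cells and 80.3, 86.7 and 78.2 in WT cells, and its log2 fold change of -0.23 was not called (SE 0.08, adjusted p = 0.065). It was called with DESeq2 (adjusted p = 0.042), without FT_1 (-0.19, adjusted p = 0.030) and with the fits that do not rescale. Both genes were lower in every FT library than in any WT library, U2AF1 by the larger margin.

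The U5 particle, which holds the exons in place and forms the catalytic centre with U2 and U6, had few calls. None of its 7 genes was called by edgeR (against 18.9% of all genes lower and 20.1% higher) or by DESeq2, while 2 had an unadjusted p under 0.05 in edgeR. Called lower were 2 with limma on FPKM values (against 29.2% of all genes), 2 with the length trend removed (19.4%) and 1 with library totals (25.2%). The median was -0.07, and the 95% confidence intervals of the 7 log2 fold changes ran from -0.47 to 0.37 at the widest. PRPF8, the protein at the heart of the catalytic centre (chromosome 19, 22753897 to 22786458), had an FPKM of 71.6, 58.3 and 58.5 in FT cells and 63.5, 63.3 and 69.6 in WT cells, so the groups overlapped (log2 fold change 0.10, 95% CI -0.17 to 0.36, adjusted p = 0.51). SNRNP200, the helicase that unwinds U4 from U6, had 36.3, 33.6 and 35.2 in FT cells and 34.7, 33.2 and 35.3 in WT cells (0.19, 95% CI 0.00 to 0.37, adjusted p = 0.095). Its TMM-scaled CPM was 248.5–263.2 in FT cells and 219.1–233.7 in WT cells, without overlap. EFTUD2, a GTPase that drives rearrangement of the particle, had 24.7, 20.5 and 23.8 in FT cells and 30.7, 29.8 and 31.1 in WT cells (-0.25, 95% CI -0.47 to -0.03, adjusted p = 0.071). Without FT_1 SNRNP200 was called higher (0.17, adjusted p = 0.040) and EFTUD2 lower (-0.29, adjusted p = 0.0087). EFTUD2 was also called lower with library totals (-0.40, adjusted p = 0.018), with limma (-0.40, adjusted p = 0.013) and with the length trend removed (-0.39, adjusted p = 0.016).

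Among the 12 genes of the U4/U6 particle and the tri-snRNP, 1 rose (8.33%, against 20.1% of all genes) and 2 fell (16.7%, against 18.9%). Without FT_1, 2 rose and 3 fell (against 30.6% and 31.5%). With library totals or limma 4 fell (against 25.2% and 29.2%). The median was 0.03, and turned to -0.12 with library totals and -0.13 with limma on FPKM values. PRPF38B (chromosome 3, 34673537 to 34681037), a relative of the PRPF38A protein that is needed for activation, was the member with the largest rise. Its FPKM was 66.9, 63.4 and 62.5 in FT cells and 31.8, 33.4 and 31.3 in WT cells, or 64.2 ± 2.33 against 32.2 ± 1.05 (SD, n = 3). It rose by 1.16 (SE 0.07, edgeR adjusted p = 0.00052), and the FT and WT libraries lay well apart. PRPF38A had 6.90, 7.09 and 7.99 in FT cells and 10.7, 9.74 and 9.33 in WT cells and was not called (-0.28, SE 0.10, adjusted p = 0.075). The log2 ratio of PRPF38B to PRPF38A counts, a pair chosen after its values were seen, was 2.07, 1.96 and 1.76 in FT cells and 0.36, 0.57 and 0.54 in WT cells. SNU13, which starts assembly on U4 snRNA by binding its kink-turn, was the most abundant gene of the list. Its FPKM was 58.3, 53.5 and 55.4 in FT cells and 69.0, 80.0 and 68.7 in WT cells, with no call (-0.22, SE 0.09, adjusted p = 0.095), but it was called without FT_1 (-0.24, adjusted p = 0.026), with library totals (-0.37, adjusted p = 0.022) and with limma (-0.37, adjusted p = 0.017). ZMAT2 and PPIH, a zinc finger protein and a cyclophilin of the tri-snRNP, were the genes that fell (-0.49 and -0.77, adjusted p of 0.0046 and 0.0083). PPIH overlaps a gene without a symbol on the opposite strand over 13024 bases.

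The PRP19 complex and the proteins that join with it were mostly lower. This complex stabilises U5 and U6 on the pre-mRNA during activation. Of its 16 listed genes, 10 fell (62.5%, against 18.9% of all genes) while 2 rose (12.5%, against 20.1%), with a median of -0.51. The number that fell was 8 to 11 when single libraries were left out (against 11.1–31.5% of all genes). CTNNBL1, which encodes a catenin-like protein that binds the complex, had an FPKM of 12.5, 11.8 and 10.9 in FT cells and 29.5, 32.6 and 28.6 in WT cells. It fell by 1.21 (SE 0.09, edgeR adjusted p = 0.00071), with FT libraries at 11.7 ± 0.77 and WT libraries at 30.2 ± 2.06 (SD, n = 3). PRPF19, the ubiquitin ligase that names the complex, fell by 0.86 (SE 0.08, adjusted p = 0.0012), and its partners BCAS2 and PLRG1 by 0.80 and 0.63 (adjusted p of 0.0042 and 0.0037). PLRG1 lies within the span of FGB on the opposite strand. CDC5L, another core partner, was not called (0.18, SE 0.14, adjusted p = 0.35), nor was AQR, the helicase that binds the intron (-0.15, SE 0.09, adjusted p = 0.23). CWC15 was the most abundant gene of the list, with 41.8, 53.8 and 53.3 in FT cells and 77.4, 82.3 and 76.7 in WT cells. Its fall by 0.51 (SE 0.13, adjusted p = 0.023) lost its call without any of the WT libraries (adjusted p of 0.066–0.084) and when the length trend was removed (-0.33, adjusted p = 0.074). SYF2 rose by 0.57 (SE 0.10, adjusted p = 0.0081). XAB2, which encodes its partner in the complex and overlaps CAMSAP3 on the opposite strand over 14260 bases, was higher by 0.48 (SE 0.13, adjusted p = 0.033), a call that was lost with library totals, with limma, with the length trend removed and without FT_3 or any WT library.

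Among 8 genes for the helicases and factors of the splicing steps, 2 rose, while 20.1% of all genes were called higher. The median of the list was 0.01, and -0.14 with library totals, where 1 further gene was called lower (against 25.2% of all genes). SLU7, which positions the 3′ splice site for the second step, had an FPKM of 39.1, 35.1 and 36.7 in FT cells and 23.5, 21.6 and 22.2 in WT cells. It rose by 0.88 (SE 0.07, edgeR adjusted p = 0.00097). DHX16, the helicase that remodels the spliceosome before the first step, had 11.7, 10.7 and 11.2 in FT cells and 7.04, 7.36 and 7.49 in WT cells, and rose by 0.77 (SE 0.07, adjusted p = 0.0013). DHX15, which takes spent spliceosomes apart and was the most abundant of the list, was level with a 95% CI of -0.14 to 0.17. Its FPKM was 37.3, 36.8 and 36.6 in FT cells and 41.5, 40.2 and 40.7 in WT cells, and the log2 fold change after scaling was 0.01 (adjusted p = 0.89), or -0.14 with library totals (adjusted p = 0.14). The remaining 5 genes (CDC40, DHX38, DHX8, DDX39B and PRPF18) lay between -0.19 and 0.05 and were not called. The values of single genes from these lists are drawn in the plot of FPKM by library.

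**Figure D3:**
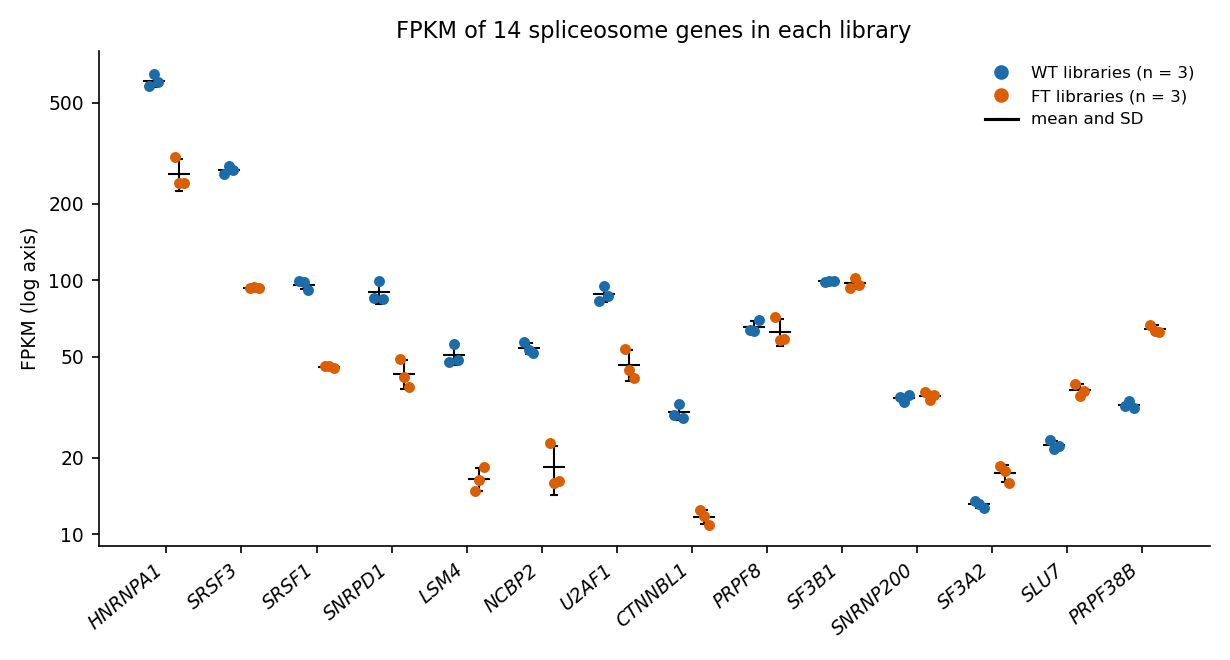
FPKM (log axis) of 14 spliceosome genes in each of the 3 FT and 3 WT libraries, with the mean and SD of each group in black. From HNRNPA1 to CTNNBL1 all FT points lie below the WT points, for PRPF8, SF3B1 and SNRNP200 the groups overlap, and for SF3A2, SLU7 and PRPF38B all FT points lie above.

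Proteins that accompany the mRNA out of the spliceosome also differed within their complexes. The list held 9 genes for the exon junction complex, the TREX export complex and the cap-binding complex. Of these 5 fell (55.6%, against 18.9% of all genes) and 1 rose (11.1%, against 20.1%), with a median of -0.36. The number that fell was 4 to 6 when single libraries were left out (against 11.1–31.5% of all genes). The nuclear cap-binding complex is a pair of NCBP1 and NCBP2, of which NCBP2 touches the cap. NCBP2 had an FPKM of 22.9, 15.9 and 16.1 in FT cells and 56.9, 53.1 and 51.8 in WT cells, and fell by 1.40 (SE 0.15, edgeR adjusted p = 0.0017). NCBP1 had 18.4, 17.9 and 16.4 in FT cells and 18.4, 19.7 and 19.2 in WT cells, overlapping groups with little change after scaling (0.04, 95% CI -0.14 to 0.22, adjusted p = 0.70). The log2 ratio of NCBP2 to NCBP1 counts was -1.93, -2.41 and -2.27 in FT cells and -0.62, -0.81 and -0.81 in WT cells, again for a pair chosen after its values were seen.

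In the exon junction complex, MAGOH and its near copy MAGOHB fell by 0.85 and 0.76 (SE 0.16 and 0.12, edgeR adjusted p of 0.0092 and 0.0056). As close copies they may share reads. EIF4A3, the helicase that anchors the complex to RNA, had an FPKM of 55.4, 49.6 and 44.0 in FT cells and 56.8, 59.8 and 51.6 in WT cells, with overlapping groups and a log2 fold change of -0.02 (95% CI -0.27 to 0.24, adjusted p = 0.92). ALYREF, the adaptor that hands mRNA to the export receptor, had 15.5, 13.5 and 12.7 in FT cells and 28.6, 32.8 and 30.5 in WT cells. It fell by 0.98 (SE 0.10, adjusted p = 0.0014). ACIN1, which encodes a peripheral factor of the junction complex, was the gene that rose, with 51.9, 48.6 and 48.1 in FT cells and 35.7, 35.7 and 37.8 in WT cells (0.60, SE 0.07, adjusted p = 0.0022).

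SR proteins bind exonic enhancers through RNA recognition motifs and recruit U1 and U2AF through domains rich in arginine and serine. Of their 11 genes, 5 fell (45.5%, against 18.9% of all genes) and 1 rose (9.09%, against 20.1%), with a median of -0.30. The number that fell was 8 without FT_1 (against 31.5% of all genes), with library totals (25.2%) or with limma (29.2%). It was 4 without FT_3, WT_1 or WT_2 (against 14.4%, 11.1% and 11.3%), where SRSF5 lost its call (adjusted p of 0.067–0.079). SRSF3 (chromosome 23, 10502815 to 10509269), the smallest SR protein, was the most abundant of them and had the smallest p of all members. Its FPKM was 92.8, 94.1 and 93.3 in FT cells and 261.1, 280.5 and 272.3 in WT cells, or 93.4 ± 0.67 against 271.3 ± 9.74 (SD, n = 3). It fell by 1.38 (SE 0.07, edgeR adjusted p = 0.00052), a level 2.60 times as high in WT cells. SRSF1, the prototype of the family, had 45.9, 45.8 and 45.0 in FT cells and 98.9, 98.3 and 91.3 in WT cells and fell by 0.92 (SE 0.07, adjusted p = 0.00085). The FT libraries were nearly identical for both genes and far from the WT libraries. SRSF9 fell by 0.94 (SE 0.10, adjusted p = 0.0017). SRSF4 rose instead, with 47.9, 49.4 and 48.4 in FT cells and 39.0, 41.5 and 38.8 in WT cells (0.45, SE 0.07, adjusted p = 0.0051). SRSF3 was above SRSF4 in FPKM in every library, by less in FT cells. The log2 ratio of SRSF3 to SRSF4 counts, which is not corrected for length, was -0.57, -0.59 and -0.58 in FT cells and 1.22, 1.23 and 1.29 in WT cells. The pair was chosen after its values were seen.

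The paralogs TRA2A and TRA2B, which bind the same purine-rich enhancers, also parted. TRA2B had an FPKM of 42.5, 43.3 and 44.2 in FT cells and 77.9, 81.7 and 75.9 in WT cells and fell by 0.70 (SE 0.07, edgeR adjusted p = 0.0015). TRA2A had 62.7, 55.9 and 58.0 in FT cells and 66.5, 69.8 and 68.5 in WT cells, and was not called (-0.06, 95% CI -0.23 to 0.12, adjusted p = 0.58). Their log2 ratio, TRA2B over TRA2A in counts, was -0.40, -0.21 and -0.24 in FT cells and 0.39, 0.39 and 0.31 in WT cells. TRA2B thus had more counts than its paralog in every WT library and fewer in every FT library.

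All 6 hnRNP genes of the KEGG entry fell in FT cells, against 18.9% of all genes by the TMM fit, 25.2% with library totals and 29.2% with limma, where all 6 were called lower too. HNRNPA1 (chromosome 5, 25779619 to 25785642), which packs nascent RNA and competes with SR proteins at splice sites, was the most abundant member of the whole set. Its FPKM was 306.5, 241.1 and 240.4 in FT cells and 583.2, 647.3 and 600.9 in WT cells. It fell by 1.06 (SE 0.12, edgeR adjusted p = 0.0021), from 610.5 ± 33.1 to 262.7 ± 37.9 (SD, n = 3). HNRNPM, a regulator of exon skipping, had 55.1, 63.1 and 62.7 in FT cells and 151.3, 165.2 and 143.3 in WT cells and fell by 1.19 (SE 0.11, adjusted p = 0.0011). The other 4 members fell by less. HNRNPA3 and HNRNPU changed by -0.67 and -0.58 (adjusted p of 0.0022 and 0.0053), and HNRNPK and HNRNPC by -0.39 and -0.33 (adjusted p of 0.012 and 0.036). The calls of HNRNPK and HNRNPC were lost without FT_2, WT_1 or WT_2 (adjusted p of 0.051–0.12), and that of HNRNPC also without FT_3 or WT_3 and with the length trend removed (adjusted p of 0.091–0.13). Of 11 further hnRNP genes outside the entry, 5 fell (HNRNPD, HNRNPDL, HNRNPF, HNRNPR and HNRNPUL2, against 18.9% of all genes), HNRNPUL1 rose by 0.49 (SE 0.09, adjusted p = 0.0087) and the others were not called, among them HNRNPH1 at 0.01 (SE 0.09, adjusted p = 0.96).

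The 6 members in no role list were RP9, which was not called (0.36, SE 0.23, edgeR adjusted p = 0.26), and 5 genes without a symbol. By the NCBI gene number in their descriptions, 4 of these are copies or relatives of members above. ENSBTAG00000050012 (chromosome 19, 44040466 to 44040711), listed as like SNRPF, had 14, 12 and 12 counts in FT cells and 167, 98 and 117 in WT cells, the largest change of any member (-3.06, SE 0.29, adjusted p = 0.0013). ENSBTAG00000034506 (chromosome 19, 11971039 to 11971269), a copy of SNRPG, had 116, 57 and 79 counts in FT cells and 493, 410 and 231 in WT cells (-1.96, SE 0.32, adjusted p = 0.0055). ENSBTAG00000006815 and ENSBTAG00000021755, copies of HNRNPA1, changed by -1.16 and -1.28 (adjusted p of 0.016 and 0.018), at an FPKM of at most 2.50 in any library, and both calls were lost without some of the other libraries (adjusted p of 0.053–0.073). Reads of a gene and its copies can be split between them, so their values are uncertain. Summed with its copies in scaled counts, the log2 ratio of FT to WT was -1.71 for SNRPG, -1.08 for SNRPF and -1.06 for HNRNPA1. The part of split reads in these values was not tested. ENSBTAG00000047341, a copy of THOC2, overlapped between the groups (0.00, SE 0.31, adjusted p = 0.99).

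Short genes held most of the lower members. The relative length of a gene, its count divided by its FPKM and set to 1 at the median gene, was 0.47 at the median of the Sm list and 0.29 for the LSm list, against 1.80 for the U5 list and 1.53 for the helicases. Among members up to 0.5 in relative length, 26 of 36 (72.2%) were called lower and the median log2 fold change was -0.71. All genes tested in that length class had 26.9% called lower and a median of -0.24. Members from 0.5 to 1 had 15 of 32 called lower (46.9%, against 20.9% of all genes), members from 1 to 1.5 had 7 of 24 (29.2%, against 17.9%), and members over 1.5 had 2 of 26 (7.69%, against 13.0%). Across genes, Spearman's rho between length and log2 fold change was 0.58 over the 118 members and 0.18 over 13194 genes with a length, where genes are not independent replicates. The length classes were chosen after the values were seen. When a smooth trend on length was removed in each library, 50 members were again called lower and 12 higher, of which 54 of the 62 calls were shared, and rho was 0.30 over the members. Short members still had the lowest median then (-0.51, against -0.22 for members over 1.5), and the part of length in the result was not tested further. The plot of change by length shows the members over these medians.

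**Figure D4:**
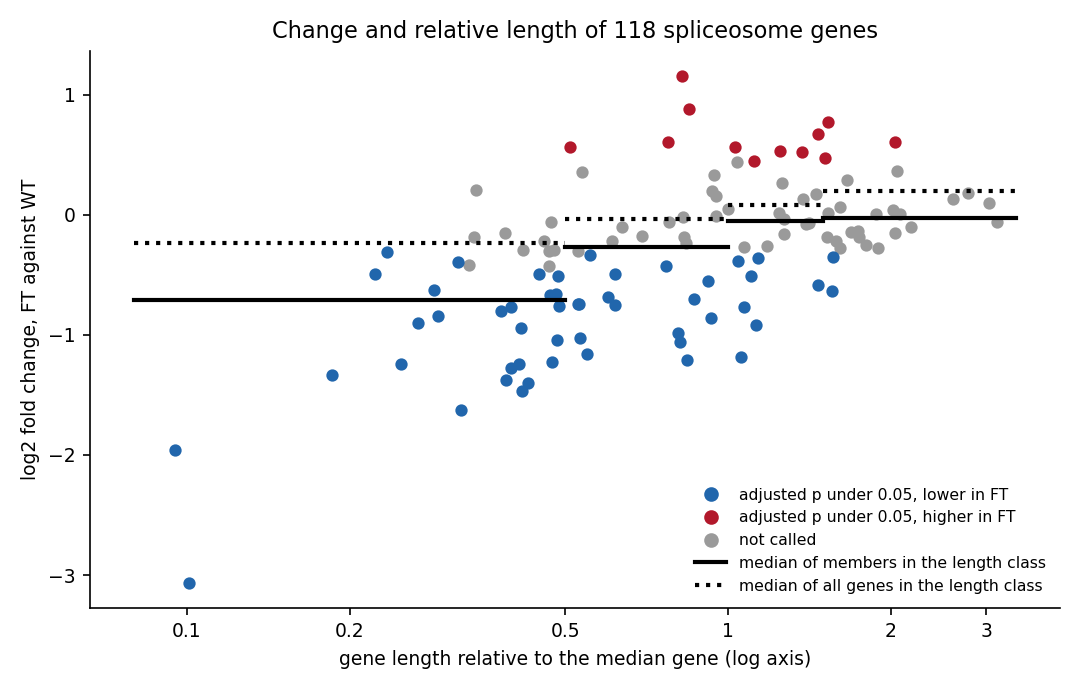
Log2 fold change of FT against WT (y axis) for the 118 spliceosome genes by relative gene length (x axis, log scale, 1 at the median gene), coloured by call. Solid lines are medians of the members and dotted lines medians of all genes tested in the same length class. The solid line lies below the dotted line in each class, most in the shortest (-0.71 against -0.24).

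In total 29 members overlap another gene of the table, 21 of them on the opposite strand. Among those named above are also SNRPD3 (9670 bases), DDX39B (3758), EFTUD2 (622), ALYREF (514), DHX38 (385), NCBP1 (361), BCAS2 (327) and EIF4A3 (310), and their values carry the same uncertainty. Neighbouring steps of the pathway, outside the KEGG entry, were taken from 4 further lists. Of 8 kinases that phosphorylate SR proteins 5 rose (62.5%, against 20.1% of all genes), with a median of 0.39 (0.24 with library totals). CLK1, which releases SR proteins from nuclear speckles, had an FPKM of 72.4, 76.2 and 74.7 in FT cells and 39.3, 42.6 and 37.5 in WT cells and rose by 1.06 (SE 0.08, edgeR adjusted p = 0.00083). SRPK1, the cytoplasmic SR kinase, rose by 0.86 (SE 0.11, adjusted p = 0.0026), CLK4 by 0.85 (SE 0.10, adjusted p = 0.0022), CLK3 by 0.40 and DYRK1A by 0.28 (adjusted p of 0.0099 and 0.028). SRPK2 had a log2 fold change of -0.05 (SE 0.11, adjusted p = 0.77). The ratio of CLK1 to SRSF1 counts, a pair chosen after its values were seen, had log2 values of 0.19, 0.27 and 0.27 in FT cells and -1.80, -1.67 and -1.75 in WT cells.

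**Figure D5:**
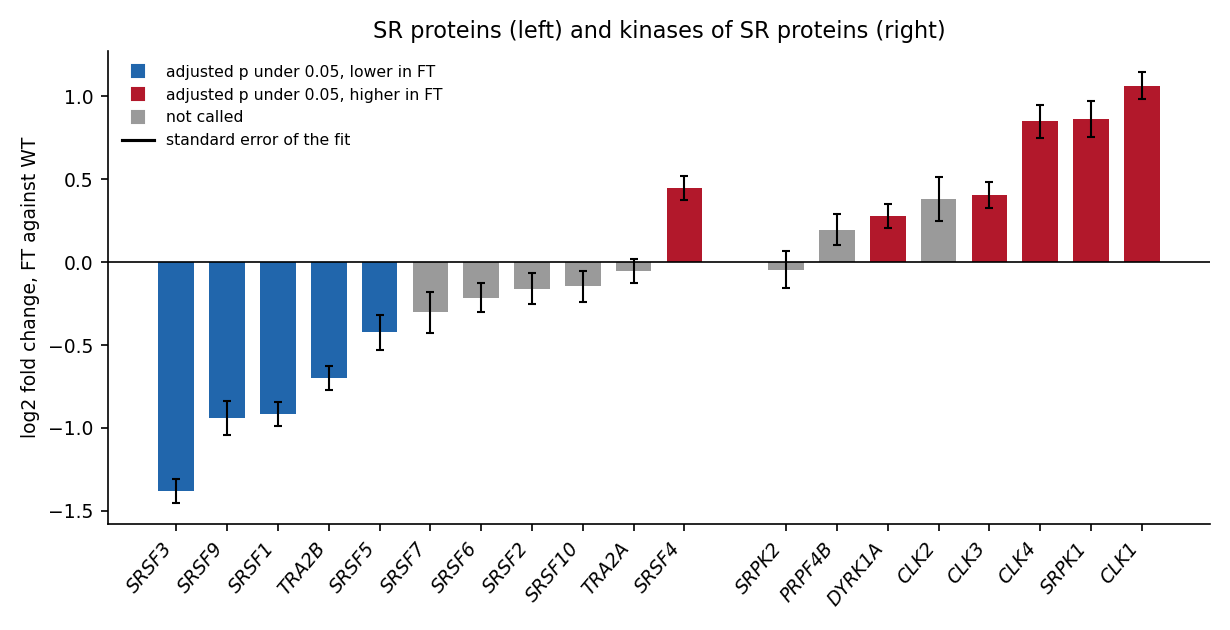
Log2 fold change of FT against WT (bars, y axis) with the standard error of the fit for the 11 SR protein genes on the left and the 8 genes for their kinases on the right, coloured by call. SR protein genes run from -1.38 (SRSF3) to 0.45 (SRSF4) and kinase genes from -0.05 (SRPK2) to 1.06 (CLK1).

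The table held 42 splicing regulators outside the entry. Among the 41 tested, 12 fell (29.3%, against 18.9% of all genes) and 9 rose (20.1% of all genes rose), with a median of -0.10. Without FT_1, 17 fell and 10 rose (against 31.5% and 30.6% of all genes). With library totals 15 fell and 6 rose (against 25.2% and 15.2%). With limma 17 fell and 6 rose among 40 tested (against 29.2% and 15.0%). KHDRBS1 (SAM68), an RNA-binding protein that responds to signalling, had an FPKM of 30.8, 32.3 and 34.7 in FT cells and 85.7, 86.4 and 81.8 in WT cells and fell by 1.22 (SE 0.08, edgeR adjusted p = 0.00069). SRRM2, a scaffold of nuclear speckles, rose by 1.11 (SE 0.10, adjusted p = 0.0011), from 46.1, 47.6 and 53.5 in WT cells to 93.0, 94.5 and 97.5 in FT cells. MBNL1 fell by 0.82 while its paralog MBNL2 rose by 0.51 (SE 0.15 and 0.10, adjusted p of 0.0077 and 0.0091). PTBP1, a repressor of exons, was not called (-0.03, SE 0.08, adjusted p = 0.83).

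The minor spliceosome, which removes a rare class of introns, had 2 of 11 genes lower and 2 higher (18.2% each). Of all genes 18.9% were lower and 20.1% higher. The median of the list was -0.17 (0.02 with the length trend removed). With library totals 5 genes of the minor spliceosome were lower and 1 higher, against 25.2% and 15.2% of all genes. SNRNP25, a protein of its U11/U12 particle, had an FPKM of 22.1, 16.9 and 18.9 in FT cells and 49.1, 51.1 and 46.4 in WT cells and fell by 1.18 (SE 0.11, edgeR adjusted p = 0.0013). RNPC3, of the same particle, rose by 0.93 (SE 0.11, adjusted p = 0.0020). Factors that load Sm rings onto snRNA and bring snRNPs into the nucleus had 8 of 19 genes lower (42.1%, against 18.9% of all genes) and 2 higher (10.5%, against 20.1%), with a median of -0.25. WDR77, a partner of the enzyme that methylates Sm proteins, had 8.14, 6.69 and 7.58 in FT cells and 16.7, 16.2 and 15.0 in WT cells and fell by 0.93 (SE 0.10, adjusted p = 0.0017). GEMIN2, which holds the Sm proteins during loading, fell by 0.99 (SE 0.17, adjusted p = 0.0070), and SNUPN, the import adaptor for snRNPs, by 0.57 (SE 0.09, adjusted p = 0.0051). PHAX and TGS1, which act in the export of snRNA and the capping of its 5′ end, were the 2 genes that rose, both by 0.46 (SE 0.08, adjusted p of 0.0086 and 0.0076).

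Genes of the cell cycle moved in the same libraries. A list of 16 proliferation genes, all on the table, had 15 genes lower in FT cells (93.8%, against 18.9% of all genes) and a median of -1.42. Its summed FPKM was 138.5, 217.2 and 206.5 in FT_1, FT_2 and FT_3 and 566.9, 682.3 and 553.2 in WT_1, WT_2 and WT_3. RRM2, which supplies deoxynucleotides for replication, was the most abundant, with 13.2, 23.4 and 21.9 in FT cells and 72.2, 78.8 and 65.3 in WT cells (-1.72, SE 0.24, edgeR adjusted p = 0.0034). CCNB1, the mitotic cyclin, changed most (-2.65, SE 0.23, adjusted p = 0.0010), and no gene of the list was at 0. MCM2 was the gene not called (-0.62, SE 0.26, adjusted p = 0.11). The part of proliferation in the lower level of spliceosome genes was not tested. Of the remaining marker lists, endothelial genes summed to at most 1.56 FPKM in any library and blood and immune genes to at most 7.93. Of 3 blood and immune genes tested, CD68 was called lower (-1.24, edgeR adjusted p = 0.018), against 18.9% of all genes. Skeletal muscle genes summed to at most 5.81, with 1 gene called higher (DES) and 2 lower (TNNT2 and MYH3) of 4 tested. Of all genes 20.1% were higher and 18.9% lower. TNNT2 and MYH3 had an FPKM of at most 0.33 and 0.12 in any library. Neural and glial genes summed to 11.6, 54.7 and 56.5 in FT cells and 22.2, 25.9 and 21.1 in WT cells, most of it nestin (NES), which was not called (adjusted p = 0.19), while TUBB3 was called lower (-0.85, adjusted p = 0.038). These were the 2 neural genes tested. Without FT_1, 1 neural gene was called higher and 1 lower, against 30.6% and 31.5% of all genes.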

How the data were processed

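RNA of 6 libraries, 1 per fetus, was analysed from the table the authors deposited. The raw counts per gene that the authors deposited came from paired-end poly(A) reads mapped with HISAT (HISAT2 2.0 per the labels) to a UCSC genome and summarised with StringTie (1.3.0) and edgeR. The deposited FPKM values of the authors divide by gene length and library total. The processing notes also name Bowtie 0.12.2 and the mouse build mm8, whose use is not given, and the bovine build is not given in the sources used here. The methods name a HiSeq instrument and the sample records a NovaSeq. Total counts ranged from 48167642 to 69777641, and each member had at least 12 counts in every library.

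Counts were tested with edgeR 4.0.16 (R 4.3.3): TMM scaling, filterByExpr, quasi-likelihood fit without covariates, Benjamini-Hochberg adjustment over 13482 genes. DESeq2 1.42.0, and limma 3.58.1 on log2(FPKM + 1) with a mean FPKM of at least 0.5, were alternatives. The other alternatives were other scalings, no filter, a pseudocount of 0.1, a length trend removed, a replicate block and each library left out. The fits were tested on simulated counts. An exact permutation test of 3 against 3 libraries cannot go below p = 0.10 and was not used. Confidence intervals (95%) are the estimate plus or minus the t quantile of the fit times SE.

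Members and lists were chosen with earlier results of these data known. Named members were those past the study's threshold (up to 6 rises and 6 falls), the most abundant and the smallest p of each role list, and PRPF8, SNRNP200, SF3B1, U2AF1, U2AF2, SNRNP70 (which proved not to be a member) and SRSF1. Each neighbouring list gave the gene with its smallest p. Other genes named, all ratios, the length classes, and list counts without FT_1 were chosen after the values were seen. Symbol-less members were looked up in RefSeq (assembly ARS-UCD2.0) by NCBI gene number, and all 5 matched. Sex chromosomes and the transgene were not analysed here.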

Additional observations from a re-analysis of the deposited data

How the results depend on the processing

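Across 15 alternatives, 35 of the 50 lower and 11 of the 12 higher spliceosome genes were called in the same direction in every fit. The number called lower ran from 38 to 64 when each library was left out and the number called higher from 11 to 17. The 64 and 17 were without FT_1, where 31.5% of all genes were called lower and 30.6% higher. The 38 was without WT_2, where 11 members were higher (against 11.3% of all genes lower and 11.6% higher). In these fits 15 to 18 members were past the study's threshold as lower and 1 as higher. Without FT_1 they were 17 and 1, beside 1686 and 1521 of all 13765 genes tested. The member past the threshold as higher, PRPF38B, was 1 in the edgeR and DESeq2 fits and 0 in the limma fits on FPKM values, where its log2 fold change was under 1. The median log2 fold change of the members was -0.26. It was -0.41 with library totals, -0.40 with limma at a pseudocount of 1 with or without the filter, -0.43 with a pseudocount of 0.1, -0.25 with the length trend removed, and -0.22 to -0.27 without single libraries. The median of all genes was 0.03, and -0.12 with library totals and with limma, -0.15 with the pseudocount of 0.1 and -0.028 with limma without the filter.

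The replicate numbers come from sample names of different fetuses and did not pair the samples, as the correlation of deviations between same-numbered libraries was -0.0010, -0.020 and 0.018 over 13482 genes. With the replicate block edgeR called 41 members lower and 11 higher, with a median of -0.27, and fewer degrees of freedom. Of all genes it called 12.9% lower and 13.6% higher.

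Of 495 values of 33 named genes, 451 kept direction and call, 19 gained a call, 5 lost it and 20 turned sign, all of genes that were not called. SF3B1 (0.13) was -0.019 with library totals, -0.027 in each limma fit and -0.10 with the length trend removed. PRPF8 (0.10) was -0.052 with library totals, -0.064 with limma, -0.065 with the pseudocount of 0.1 and -0.16 with the length trend removed. DHX15 (0.01) was -0.14 with library totals and with limma, -0.15 with the pseudocount of 0.1, -0.033 with the length trend removed and -0.00082 to 0.020 without single WT libraries. EIF4A3 (-0.02) was 0.020 with the length trend removed, -0.089 without FT_1, 0.054 without FT_3 and 0.03 without WT_2. SNRNP200 (0.19) was -0.058 with the length trend removed. The cause was not tested. Among the other members, SF3B5 lost its call and its sign with the length trend removed (-0.31 against 0.01). Depth limits the copies without a symbol most, at 12 counts in the lowest library.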
